A study of Mus musculus with 6 samples.

Results

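The genes described here encode subunits of the 2 chaperonins of mouse cells. They are 8 subunit genes of TRiC in the cytosol (Tcp1, Cct2, Cct3, Cct4, Cct5, Cct6a, Cct7 and Cct8) and the 2 mitochondrial genes Hspd1 (HSP60) and Hspe1 (HSP10). They were picked by name after Entrez gene IDs had been mapped to symbols, 10 of 40808 gene IDs in the count table. All 10 were found and passed the filter on low counts. Cct6b, another TRiC subunit gene in the count table, was not among those picked. The labels describe the RNA as from leukaemia cells of the spleen of bone marrow transplanted mice. It was sequenced from the 3′ ends of mRNA in 6 libraries. Of these, 3 were labelled as receiving no Dox (replicates 4, 5 and 6) and 3 as receiving Dox (replicates 10, 11 and 12). Markers of several cell types were found in both groups, as given below, so the RNA was not shown to be from leukaemia cells alone. Tissue, organism and library method were the same in both groups. The labels spell out neither Dox nor its dose and duration, and name no transgene, strain, sex, age or leukaemia lineage. By its title, the study is about how UVRAG, ITCH and ESCRT act on the receptor NOTCH. The labels do not say whether a library is 1 animal, so p-values measure the spread between these libraries.

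Chaperonins are ring-shaped machines that enclose an unfolded protein in a chamber and use ATP to let it fold there. TRiC, also called CCT, is built of rings in which each position is held by a different subunit, so that a complete complex needs all of its subunit genes. It is best known for folding actin and tubulin, with prefoldin delivering many of these proteins to it. HSP60 forms the chamber of the mitochondrial matrix and HSP10 is its lid, and the pair folds proteins after their import. Chaperonin genes are active in dividing cells, including activated and leukaemic lymphocytes, and several are known as targets of the transcription factor MYC.

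The libraries held 5541486 to 8725767 counts, and the members had 409 to 4398 counts each without Dox and 87 to 2023 with Dox. Features other than treatment followed the groups. Y-linked genes had 545 to 801 counts in the libraries without Dox and 0 in each with Dox. Xist had 193 to 324 counts without Dox and 3347 to 5669 with Dox. Sex-linked expression, and with it the sex of the cells, cannot be told apart from Dox here. The summed level of 12 T cell markers was 2019 to 2125 normalized counts scaled to library size (CPM) without Dox and 254 to 352 CPM with Dox, with 10 of the 12 called lower and none at 0 in any library. The summed level of 12 B cell markers was 39.7 to 50.5 CPM without Dox and 2061 to 2119 CPM with Dox. Myeloid markers summed to 474 to 522 CPM and 2279 to 2386 CPM, with Ly6g at 0 counts without Dox. Of these 12 markers, 7 were called higher and 1 lower. The 15 proliferation markers summed to 4417 to 4745 CPM and 2914 to 3496 CPM, with 10 called lower. Erythroid and stromal markers summed to higher levels with Dox as well, without overlap. Of these, 5 of 11 and 6 of 12 were called higher, and 2 of each list lower. In bulk RNA, fewer cells of a type and less RNA per cell cannot be told apart, and the part of these cell markers in the results below was not tested.

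In the Dox group all 10 members were called lower. The test was the quasi-likelihood test of edgeR with Benjamini-Hochberg adjustment over 14110 genes and a threshold of 0.05. Cct6b, which is not a member, was not called (log2 fold change -0.381, SE 1.279, edgeR adjusted p = 0.828). Its mean log2 CPM was low, at 0.918. Of all tested genes 45.6% were called, 22.1% lower and 23.6% higher. Lower genes were 48.4% of the calls, and 35.7% when only library size was scaled. Among the 3167 tested genes at least as abundant as Tcp1, the least abundant member, 42.9% were called lower. The groups of CPM values did not overlap for any of the 10 members, as was so for 59.6% of all tested genes, 29.6% in this direction. The median log2 fold change of the 10 genes was -1.83, beside 0.07 for all tested genes. The fall was uneven, since 8 members fell by more than 1 on the log2 scale, 4 of them by more than 2 (9.51% of all tested genes), while Cct5 and Cct7 fell by less than 1. By library size only, 7 members were past 1 and Hspe1 alone was past 2. Of all tested genes 36.3% were at or under the log2 fold change of Cct7, the least changed member.

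**Figure D1:**
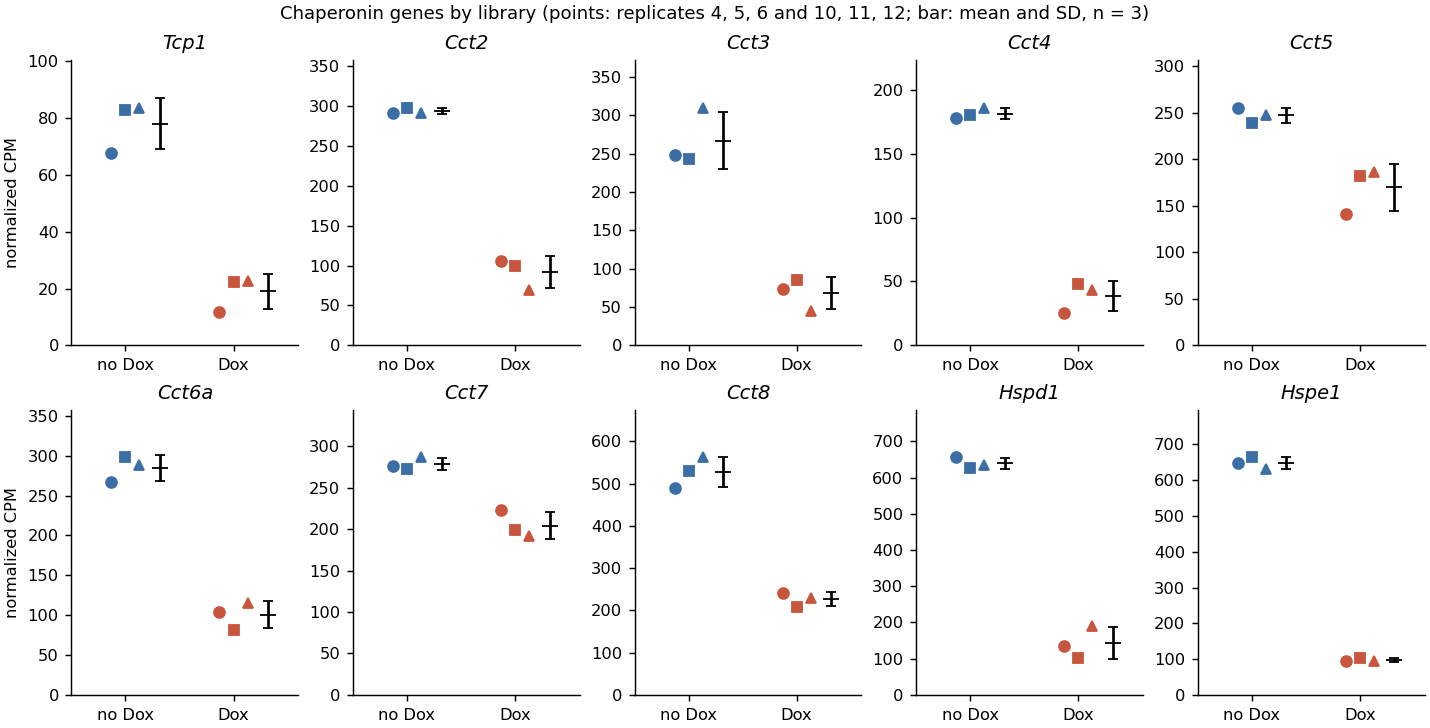
Normalized CPM of the 10 chaperonin genes in each of the 6 libraries (blue, no Dox; red, Dox; circle, square and triangle mark replicates 4, 5 and 6 or 10, 11 and 12), with the mean and SD of 3 libraries beside them; the vertical axis of each panel starts at 0. The red points lie below the blue ones in every panel, for Cct7 with 273 CPM as the lowest library without Dox and 223 CPM as the highest with Dox.

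Of the TRiC subunits, Cct4 (CCT delta; chromosome 11, 22990519 to 23003780 in GRCm38, plus strand) had the lowest fold. It was 178, 180.4 and 186 CPM in replicates 4, 5 and 6 without Dox and 25.2, 48.0 and 43.0 CPM in replicates 10, 11 and 12 with Dox. The groups lay far apart, and the library of replicate 10 was the lowest. Cct4 fell by 2.23 log2 units (SE 0.24), 4.68-fold lower, with an adjusted p-value of 6.19e-05 (edgeR).

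Tcp1 (CCT alpha, the subunit that gave the complex its name; chromosome 17, 12915701 to 12925067, plus strand) had the fewest counts of the members. It was 67.7, 82.9 and 83.7 CPM in the libraries lacking Dox and 11.8, 22.2 and 22.8 CPM in those given Dox. As for Cct4, replicate 10 was the lowest library with Dox. Tcp1 fell by 2.04 log2 units (SE 0.27, edgeR adjusted p = 0.000238).

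Cct3 (CCT gamma; chromosome 3, 88297116 to 88321767, plus strand) was 248, 243 and 310.2 CPM in the libraries lacking Dox and 73.5, 85.5 and 45.3 CPM in those given Dox. Here replicate 6 stood above the other libraries without Dox, and replicate 12 was the lowest with Dox. Cct3 fell by 1.97 log2 units (SE 0.24, edgeR adjusted p = 0.000137). Cct2 (CCT beta; chromosome 10, 117051001 to 117063814, minus strand) was 291, 298 and 291 CPM in the libraries lacking Dox and 106, 99.7 and 68.9 CPM in those given Dox. The 3 libraries without Dox agreed closely, and replicate 12 was again the lowest with Dox. Cct2 fell by 1.68 log2 units (SE 0.19, edgeR adjusted p = 8.29e-05).

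Cct6a (CCT zeta; chromosome 5, 129786998 to 129846371, plus strand) was 267, 298 and 289 CPM in the libraries lacking Dox and 104, 81.9 and 115 CPM in those given Dox. It fell by 1.5 log2 units (SE 0.18, edgeR adjusted p = 9.92e-05). Cct8 (CCT theta; chromosome 16, 87483326 to 87495873, minus strand) was 491, 531 and 563 CPM in the libraries lacking Dox and 241, 208 and 230.2 CPM in those given Dox. Its Dox libraries lay close together, and it fell by 1.22 log2 units (SE 0.15, edgeR adjusted p = 0.000114).

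Cct5 and Cct7 stood apart from the other subunits. Cct5 (CCT epsilon; chromosome 15, 31590800 to 31601804, minus strand) was 255, 239 and 247 CPM in the libraries lacking Dox and 141, 182 and 186 CPM in those given Dox. The gap between the groups was set by replicate 5 without Dox and replicate 12 with Dox. Cct5 fell by 0.54 log2 units (SE 0.16, 95% interval -0.91 to -0.18, edgeR adjusted p = 0.021). Cct7 (CCT eta; chromosome 6, 85451514 to 85468475, plus strand) was 276, 273 and 287 CPM in the libraries lacking Dox and 223, 199 and 191 CPM in those given Dox. Cct7 fell by 0.45 log2 units (SE 0.15, 95% interval -0.77 to -0.12, edgeR adjusted p = 0.0295).

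The calls of these 2 genes depended on the scaling, on the filter on low counts and on single libraries. Scaling by library size only raised the log2 fold changes of all genes by a median of 0.31. Under it Cct5 was at -0.23 (edgeR adjusted p = 0.253) and Cct7 at -0.14 (edgeR adjusted p = 0.49). With upper-quartile factors Cct7 was at -0.35 (edgeR adjusted p = 0.075). With at least 10 counts required in every library, neither passed (edgeR adjusted p = 0.0507 for Cct5 and 0.088 for Cct7). Without replicate 4 of the group without Dox, Cct5 had an adjusted p-value of 0.0607 (edgeR). For Cct7 it was 0.0783, 0.0764 and 0.0606 without replicates 4, 5 and 6, and 0.0552 without Dox replicate 11 (edgeR). The other 8 members stayed lower with Dox and past the threshold in each of 16 alternatives.

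**Figure D2:**
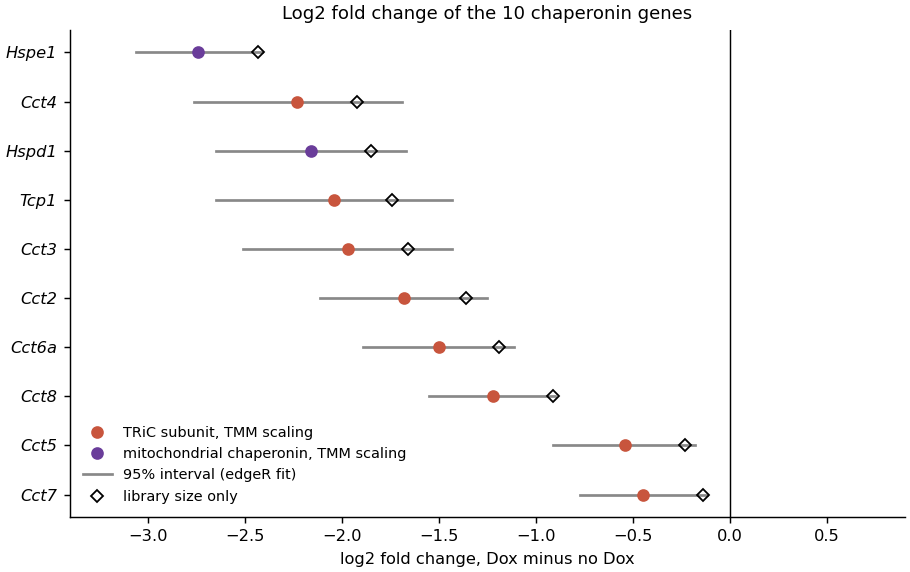
Log2 fold change of each member, Dox minus no Dox, ordered from the lowest at the top (filled circles, TMM scaling; grey lines, 95% interval of the edgeR fit on 3 libraries per group; open diamonds, scaling by library size only). Hspe1 is lowest at -2.74, and Cct5 and Cct7 lie nearest to 0, at -0.23 and -0.14 when only library size was scaled.

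Hspd1 and Hspe1 lie head to head on chromosome 1 (Hspd1, 55077835 to 55088243, minus strand; Hspe1, 55088132 to 55091307, plus strand), with annotated starts 111 bases apart and spans that overlap by 112 bases. Hspd1, the chamber protein, was 656, 626 and 636 CPM in the libraries lacking Dox and 136, 103 and 191 CPM in those given Dox. The highest Dox library was replicate 12, the lowest replicate 11. Hspd1 fell by 2.16 log2 units (SE 0.22), 4.46-fold lower, with an adjusted p-value of 4.5e-05 (edgeR). Hspe1, the lid protein, was 648, 664 and 631 CPM in the libraries lacking Dox and 94.2, 103 and 94.2 CPM in those given Dox. Its libraries were close together within each group, with a coefficient of variation (SD over mean) of 2.53% without Dox and 5.07% with Dox. Hspe1 fell by 2.74 log2 units (SE 0.15), 6.67-fold lower, with an adjusted p-value of 1.66e-06 (edgeR). Of all tested genes, 4.3% had a lower log2 fold change than Hspe1.

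The log2 ratio of Hspe1 to Hspd1 counts within a library, which no scaling between libraries affects, was -0.02, 0.09 and -0.01 in the libraries lacking Dox against -0.53, 0.00 and -1.02 under Dox. The groups overlapped because replicate 11 had 998 counts of Hspe1 and 997 of Hspd1, and the difference of -0.54 did not pass (exact two-sided permutation p = 0.3, adjusted p = 0.333 over 10 shares and ratios).

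The shared promoter of Hspd1 and Hspe1 is shown for the heat shock element in it, the site type bound by heat shock factors. Promoter sequences came from RefSeq (GRCm38.p6), which had an entry for 9 of the 10 members, all except Cct4. The 250 bases before each start were searched on both strands. The element searched, the triplets GAA, TTC and GAA in that order with 2 free bases between neighbours, was in 0.466% of 32851 promoters and among the members in those of Hspd1 and Hspe1 only, which is the same stretch read from both sides. Capitals mark it in the 30 bases at chr1:55088053-55088082, plus strand, where 2 matches overlap and cover 18 bases.
Hspe1 promoter: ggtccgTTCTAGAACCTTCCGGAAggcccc
The stretch lies in an annotated exon of a longer Hspd1 transcript. It also holds the ETS-type letters CCGGAAG on both strands, overlapping the element, which were in 6.91% of promoters and in those of Cct2, Cct8, Hspd1 and Hspe1. The E-box CACGTG, the letters bound by MYC with its partner MAX, was in the promoter of Hspd1 alone among the members and in 6.02% of all promoters.

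Promoters of the TRiC genes are shown for the CCAAT box, the letters bound by the factor NF-Y, because the gene that fell least and a gene that fell by 1.97 on the log2 scale both held it. CCAAT was in 33.8% of promoters and in those of Tcp1, Cct3, Cct6a and Cct7. Whether this box, or any other site searched, bears on the fold changes was not tested. Capitals mark it, read here on the other strand as ATTGG, at chr3:88297000-88297115 and chr6:85451284-85451504, both on the plus strand, with 2 matches before Cct3 and 3 before Cct7.
Cct3 promoter: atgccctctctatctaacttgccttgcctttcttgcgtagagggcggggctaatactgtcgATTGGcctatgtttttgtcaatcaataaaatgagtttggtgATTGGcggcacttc
Cct7 promoter: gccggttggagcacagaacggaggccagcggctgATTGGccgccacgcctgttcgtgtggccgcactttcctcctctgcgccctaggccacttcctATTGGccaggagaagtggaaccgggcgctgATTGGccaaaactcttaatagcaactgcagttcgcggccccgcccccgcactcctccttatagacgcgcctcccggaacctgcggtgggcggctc
The GC box GGGCGG, the letters bound by SP1, was in all 9 member promoters and in 32.7% of all promoters. Cct2 is shown for the 4 GC boxes in capitals, read on the other strand as CCGCCC, at chr10:117063853-117064102, minus strand.
Cct2 promoter: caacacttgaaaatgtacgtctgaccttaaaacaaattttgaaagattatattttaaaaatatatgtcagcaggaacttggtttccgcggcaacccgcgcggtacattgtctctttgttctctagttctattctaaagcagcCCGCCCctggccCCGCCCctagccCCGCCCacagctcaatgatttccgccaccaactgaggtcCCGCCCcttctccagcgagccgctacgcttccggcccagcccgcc

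The 8 TRiC genes together were 2075, 2145 and 2256 CPM in the libraries lacking Dox and 926, 926 and 903 CPM in those given Dox. The Dox libraries agreed on the sum (918 ± 13 CPM, SD, n = 3) although single subunits varied by 7.33% to 32.5% (coefficient of variation) among them. The sum was 2.35-fold lower under Dox (exact two-sided permutation p = 0.1, the smallest that 3 against 3 allow). Hspd1 and Hspe1 together were 1304, 1289.5 and 1267 CPM in the libraries lacking Dox and 230.5, 205 and 285 CPM in those given Dox, 5.36-fold lower (exact two-sided permutation p = 0.1). The log2 ratio of TRiC to Hspd1 counts within a library was 1.66, 1.78 and 1.83 in the libraries lacking Dox against 2.76, 3.17 and 2.24 under Dox. That ratio was higher in all 3 Dox libraries, by 0.97 on average (exact two-sided permutation p = 0.1, adjusted p = 0.125).

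The share of a gene in the summed TRiC counts of its library needs no scaling between libraries, and it is compared here only for the same gene between libraries. Cct7 took 13.3%, 12.7% and 12.7% without Dox and 24.1%, 21.5% and 21.2% with Dox. Cct5 took 12.3%, 11.1% and 11% without Dox and 15.3%, 19.6% and 20.6% with Dox. Both shares were higher in each Dox library than in any library without Dox. Cct3 went the other way, from 12%, 11.3% and 13.7% to 7.94%, 9.23% and 5.02%. Cct4 went from 8.57%, 8.41% and 8.25% to 2.72%, 5.18% and 4.76%. The shares of Cct2 (from 13.6% ± 0.61 to 9.95% ± 2.0, SD, n = 3 each) and Tcp1 (from 3.61% ± 0.31 to 2.07% ± 0.69, SD, n = 3 each) were lower in each Dox library as well. Cct6a was lower by so little in replicate 12 that its value there and in replicate 6 both round to 12.8%. Cct8 took 24.4% ± 0.70 and 24.7% ± 1.9 (SD, n = 3 each), and its groups overlapped. In all, 2 shares were higher, 5 lower and 1 overlapped, and each of the 7 had an exact two-sided permutation p of 0.1, the smallest that 3 against 3 allow (adjusted p = 0.125 over 10 shares and ratios), so that none could pass a threshold of 0.05. The shares of a library sum to the whole and so are not independent of each other, and the CPM of 59.6% of all tested genes did not overlap between these groups either.

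**Figure D3:**
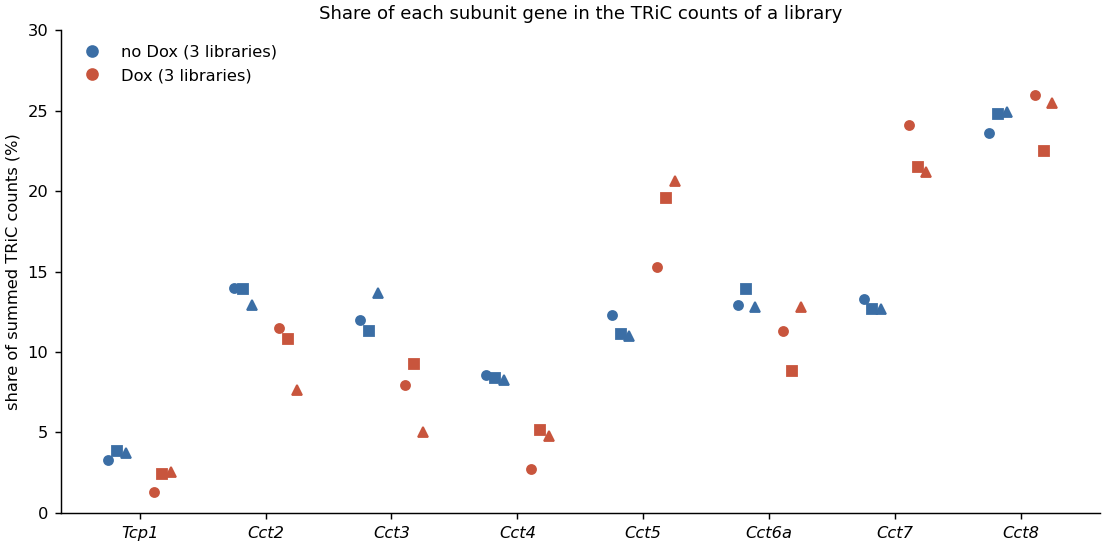
Share (%) of each subunit gene in the summed TRiC counts of a library (blue, 3 libraries without Dox; red, 3 with Dox; circle, square and triangle mark replicates 4, 5 and 6 or 10, 11 and 12). Cct5 and Cct7 lie between 11% and 13.3% without Dox and between 15.3% and 24.1% with Dox, Tcp1, Cct2, Cct3 and Cct4 sit lower with Dox, and Cct8 overlaps.

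The coefficient of variation was larger with Dox for all 10 members, as it was for 70.3% of tested genes with a value and 79.0% of those at least as abundant as Tcp1. In CPM, the SD was larger with Dox for 6 members and smaller for 4 (Tcp1, Cct3, Cct8 and Hspe1). The coefficient of variation ran from 1.23% to 14.0% over the members without Dox (median 2.99%) and from 5.07% to 32.5% with Dox (median 19.4%). No library with Dox was low for the whole set: replicate 10 was the lowest for 4 members, replicate 11 for 3 and replicate 12 for 3. Averaged over the members, log2 CPM in the Dox libraries lay between -0.08 and 0.05 of the group mean.

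Neighbouring genes on the opposite strand were looked at because many chaperonin genes lie close to another start. Of the head-to-head neighbours, Mrpl18 (a mitochondrial ribosomal protein, beside Tcp1) was 197 ± 12 CPM in the libraries lacking Dox and 96.2 ± 6.7 CPM in those given Dox (SD, n = 3 each), a fall by 1.03 log2 units (SE 0.16, edgeR adjusted p = 0.000486) where Tcp1 fell by 2.04. Psph (an enzyme of serine synthesis, beside Cct6a) had 241, 177 and 196 counts without Dox and 69, 25 and 6 with Dox, a fall by 3.05 log2 units (SE 0.65, edgeR adjusted p = 0.00384) where Cct6a fell by 1.5. The neighbours of Cct3 (Tsacc, -2.37, SE 1.21, adjusted p = 0.138), Cct5 (Atpsckmt, 0.35, SE 0.37, adjusted p = 0.47), Cct7 (Pradc1, -1.01, SE 1.16, adjusted p = 0.51) and Cct8 (B130034C11Rik, -1.44, SE 1.15, adjusted p = 0.335) did not pass in log2 fold change (edgeR). Without Dox replicate 12, B130034C11Rik passed (-3.53, edgeR adjusted p = 0.0302). The 3′ end of Tcp1 overlaps Acat3 by 1255 bases and that of Cct8 overlaps Usp16 by 192 bases, and whether strand was used in counting is not given in the sources used here. Acat3 had 0 counts in 5 libraries and 13 in Dox replicate 12, and Usp16 was at -0.27 (SE 0.19, edgeR adjusted p = 0.279), or 0.044 by library size only, where Cct8 fell by 1.22.

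The genes that work with the chaperonins were then compared. Prefoldin subunits and the phosducin-like and thioredoxin-like proteins that assist TRiC fell in 7 of 9 cases, 1 rose and 1 did not pass (median log2 fold change -1.28). Pfdn4 fell by 2.32 (SE 0.29, adjusted p = 0.000166) and Pfdn1 by 2.10 (SE 0.23, adjusted p = 7.47e-05) on the log2 scale (edgeR). Pfdn5, a prefoldin subunit also known to bind MYC, rose from 120.1, 105 and 93.4 CPM to 213, 203 and 238 CPM, by 1.04 log2 units (SE 0.17, edgeR adjusted p = 0.000709).

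Of 13 actin and tubulin genes, whose products are known clients of TRiC, 7 fell and 1 rose (median -0.91), a share called lower of 53.8% beside 22.1% of all tested genes and 42.9% of those at least as abundant as Tcp1. By library size only, and with at least 10 counts required in every library, the median was -0.60 and 2 rose. Tubb2b fell by 2.85 (SE 0.35, adjusted p = 0.000152) and Tubb2a fell by 2.66 (SE 0.26, adjusted p = 3.33e-05) on the log2 scale (edgeR). The gene that rose was Actb, from 3219 ± 407 to 7135 ± 1556 CPM (SD, n = 3 each; log2 fold change 1.15, SE 0.17, edgeR adjusted p = 0.000447). Of 6 cofactors that pair tubulins after TRiC, Tbcb (-2.38, SE 0.25, adjusted p = 5.5e-05) and Tbca (-1.03, SE 0.20, adjusted p = 0.00217) fell in log2 fold change and 4 did not pass (edgeR; median -0.33). That median was -0.03 by library size only, -0.50 without replicate 4 and -0.11 without Dox replicate 11.

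Of 13 tested genes for WD repeat and other reported clients, 7 fell and 1 rose (median -0.72), the same 53.8% called lower, beside the same 22.1% and 42.9%. Strap, a WD repeat protein (-1.67, SE 0.18, adjusted p = 6.43e-05), and Gnb2, a G protein beta subunit (-1.60, SE 0.52, adjusted p = 0.0307), fell the furthest in log2 fold change (edgeR). The number that fell was 4 without replicate 4, 5 or 6 and without Dox replicate 11, and 3 by library size only. Gnb2 did not pass without replicate 5, replicate 6 or Dox replicate 11 (adjusted p = 0.0583, 0.112 and 0.0523 by edgeR), by library size only (0.0737) or with DESeq2 (0.0733).

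Among other folding systems, 13 of 19 tested genes of the cytosolic HSP70 and HSP90 system fell and none rose (median log2 fold change -1.14). Dnaja1, a co-chaperone of HSP70, fell by 2.25 log2 units (SE 0.17, edgeR adjusted p = 7.17e-06). Hsf1, the heat shock factor, fell from 11.8 ± 4.9 to 3.06 ± 2.1 CPM (SD, n = 3 each; log2 fold change -1.95, SE 0.63, edgeR adjusted p = 0.0286), and did not pass without replicate 5, replicate 6 or Dox replicate 11 (adjusted p = 0.118, 0.0956 and 0.0582 by edgeR), by library size only (0.0612) or with limma-voom and group weights (0.0767). Hsp90ab1 was 2869 ± 100.7 and 2499 ± 279 CPM (SD, n = 3 each), a difference that did not pass (log2 fold change -0.20, SE 0.13, edgeR adjusted p = 0.235). Of 7 heat-inducible chaperones listed, 5 had enough counts to be tested, with a median log2 fold change of -0.66. None was called lower, and Dnajb4 rose by 1.33 log2 units (SE 0.24, edgeR adjusted p = 0.00161). The 4 that did not pass had few counts, which limits what a missing call can show. With Dox replicate 10 or 11 left out, 1 was called lower.

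In mitochondria, 18 of 20 import genes fell and none rose (median log2 fold change -2.31). Timm8b, a chaperone of the space between the membranes, was 54.5 ± 19 CPM in the libraries lacking Dox and 1.18 ± 1.9 CPM in those given Dox (SD, n = 3 each; log2 fold change -5.60, SE 0.91, edgeR adjusted p = 0.000774), with 0 counts in Dox replicate 11 and 1 in replicate 12. Tomm5, of the outer membrane channel, fell by 3.64 log2 units (SE 0.24, edgeR adjusted p = 4.11e-06). Of 14 genes for the HSP70 system and proteases of the matrix and membranes, 7 fell and 2 rose (median -0.85), 50.0% called lower. Beside this stand 22.1% of all tested genes and 42.9% of those at least as abundant as Tcp1, although several of the 14 were less abundant. By library size only, 4 fell (median -0.54). Dnaja3 fell by 1.74 (SE 0.45, adjusted p = 0.0108) and Htra2 rose by 2.67 (SE 0.83, adjusted p = 0.0246) on the log2 scale (edgeR), the latter from 0.881 ± 0.58 CPM (SD, n = 3), and Htra2 did not pass without replicate 5 or 6 or Dox replicate 11 or 12 (adjusted p = 0.108, 0.0952, 0.0521 and 0.0577 by edgeR), without a filter on low counts (0.0683) or with limma-voom (0.0763). Without replicate 5, Dnaja3 did not pass (edgeR adjusted p = 0.0785) and 4 genes of this list fell.

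In the endoplasmic reticulum, which has no chaperonin, 5 of 15 chaperone genes fell and 2 rose (median log2 fold change -0.44). Sdf2l1 fell by 2.05 (SE 0.41, adjusted p = 0.00243) and Manf by 1.39 (SE 0.20, adjusted p = 0.00034) on the log2 scale (edgeR). The number that fell was 3 without replicate 4, 5 or 6 and without Dox replicate 10. It was also 3 by library size only (median -0.14), with upper-quartile factors (median -0.35) and with at least 10 counts required in every library (median -0.22). The share called lower was 90.0% for import genes, 77.8% for TRiC cofactors and 68.4% for the cytosolic HSP70 and HSP90 system. It was 53.8% for the tubulin and actin genes and for the WD repeat and other clients, and 50.0% for the mitochondrial HSP70 system and proteases. For tubulin cofactors and for endoplasmic reticulum chaperones it was 33.3%, and none of the heat-inducible chaperones was called lower. Beside these stand all 10 members, 22.1% of all tested genes and 42.9% of the tested genes at least as abundant as Tcp1. These shares describe lists of unlike size and abundance, and differences between lists were not tested.

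**Figure D4:**
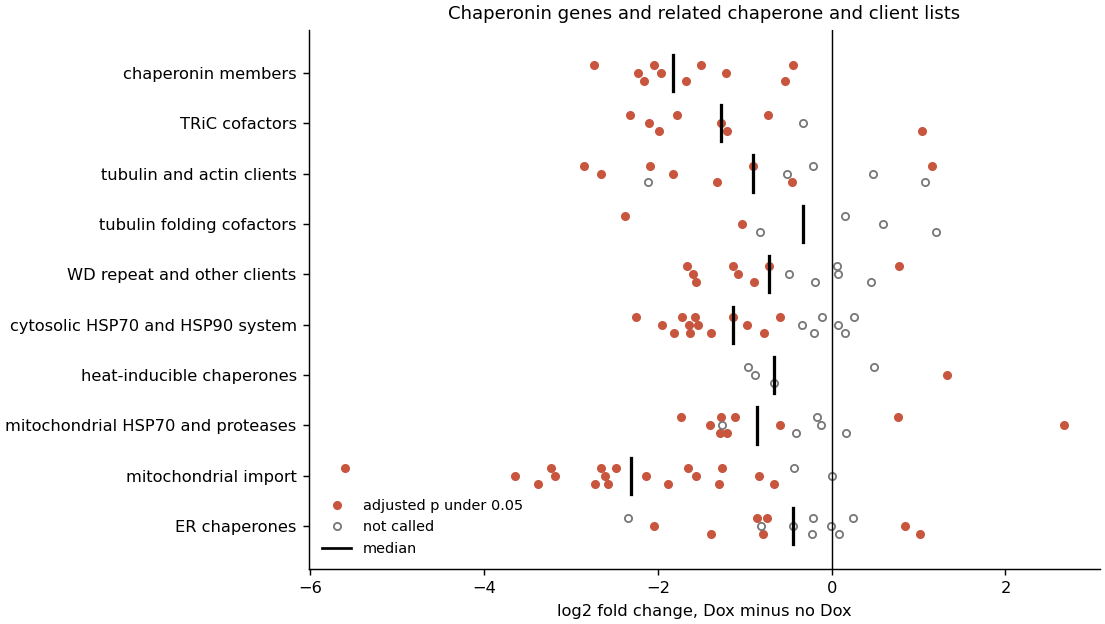
Log2 fold change, Dox minus no Dox, of each tested gene in the chaperonin set and 9 related lists (red, adjusted p under 0.05 by edgeR; open, not called; black bar, median of the list). All members are red and left of 0, with a median of -1.83, beside -2.31 for mitochondrial import and -0.44 for endoplasmic reticulum chaperones.

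The genes most like the chaperonin set across the 6 libraries were found by the root mean square difference between a gene's log2 CPM, centred over the libraries, and the mean centred profile of the members. Among 7045 genes with at least median abundance, the 8 nearest were Erh, Bzw2, Arpc1b, Emd, Vta1, Hdac7, Serbp1 and Rpf1, at 0.066 to 0.083 on the log2 scale. Serbp1, an mRNA-binding protein, was 3937 ± 135 CPM in the libraries lacking Dox and 1163 ± 67 CPM in those given Dox (SD, n = 3 each). The members themselves lay at 0.187 (Cct6a) to 0.621 (Cct7) from their own mean profile. The 8 genes were picked as the nearest of 7045 and the members were not, so these ranges cannot be compared. This is a likeness over 6 libraries in 2 groups and carries no test.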

How the data were processed

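RNA was sequenced from 6 spleen samples, 3 without and 3 with Dox, with a library kit that reads the 3′ end of mRNA, per the labels' protocols. The authors deposited raw counts per Entrez gene ID. The submitters' processing notes name STAR, featureCounts and GRCm38, and versions, strand setting and annotation are not given in the sources used here. Symbols came from RefSeq (GRCm38.p6) for 39374 of 40808 IDs, and positions from GENCODE M21 (GRCm38). None of 46 annotated pseudogenes of the members has a row in the count table, so that how their reads were assigned was not examined.

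Genes with low counts were removed (filterByExpr, count minimum 10 and total minimum 15), leaving 14110. Counts were scaled by TMM factors and tested with the quasi-likelihood test of edgeR 4.0.16 (R 4.3.3), two-sided, with Benjamini-Hochberg adjustment over all tested genes and a threshold of 0.05. The code was tested on simulated data. SE is the log2 fold change over the root of its F statistic. CPM values are normalized by the same factors. Sums, shares and ratios were compared by exact permutation (scipy 1.17.1). Total counts of 5541486 to 8725767 per library limit the precision of low genes.

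The members and lists were chosen with earlier results of these data known. Named genes were the members, the 2 genes with the largest absolute log2 fold change among those called in each list, opposite-strand neighbours starting within 1000 bases or overlapping, and the 8 genes nearest to the mean profile of the members. Cct6b, Pfdn5, Actb and Hsp90ab1 fall outside that rule and were named after their values were seen. Alternatives were RLE and upper-quartile factors, library size only, other filters, DESeq2 1.42.0, limma 3.58.1 with voom, a threshold of 0.01, removal of mitochondrial, globin and antigen receptor genes, and each library left out. Voom with group weights was added after seeing the data.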

Additional observations from a re-analysis of the deposited data

How the results depend on the processing

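No paired analysis was possible because replicates are numbered 4, 5 and 6 in one group and 10, 11 and 12 in the other. Hspd1, Hspe1 and the TRiC genes other than Cct5 and Cct7 kept direction and call under all 16 alternatives. By library size only, which raised all log2 fold changes by a median of 0.31, Cct5 was -0.23 and Cct7 -0.14 (neither called), the summed TRiC genes -0.92, Hspd1 with Hspe1 -2.11, and Usp16 reversed to 0.044. Medians under that scaling were -1.51 (members), -0.96 (TRiC cofactors), -0.60 (tubulin and actin, 2 higher), -0.03 (tubulin cofactors), -0.42 (WD repeat, 3 lower), -0.83 (HSP70 and HSP90, 1 higher), -0.54 (mitochondrial HSP70, 4 lower), -2.0 (import) and -0.14 (endoplasmic reticulum, 3 lower). Upper-quartile factors gave Cct7 -0.35 (not called) and medians of -1.73 (members), -1.04 (HSP70 and HSP90) and -0.35 (endoplasmic reticulum, 3 lower), with 2 tubulin and actin genes higher. Without a filter, medians were -1.96 (members), -1.41 (HSP70 and HSP90), -0.99 (mitochondrial HSP70, 1 higher) and -0.58 (endoplasmic reticulum), with 0 WD repeat genes higher. Requiring at least 10 counts in every library tests fewer genes and gave Cct5 -0.42 and Cct7 -0.33 (neither called), and medians of -1.71 (members), -0.60 (tubulin and actin, 2 higher), -0.94 (HSP70 and HSP90), 0.35 (heat-inducible), -0.99 (mitochondrial HSP70, 1 higher), -2.02 (import) and -0.22 (endoplasmic reticulum, 3 lower). DESeq2 gave a median of -1.31 for HSP70 and HSP90, and voom called 1 mitochondrial HSP70 gene higher. At a threshold of 0.01, Cct5 (-0.54) and Cct7 (-0.45) were not called, 3 WD repeat, 3 mitochondrial HSP70 and 3 endoplasmic reticulum genes were lower, and 1 mitochondrial HSP70 gene was higher.

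With each library left out in turn, medians ran from -1.90 to -1.70 (members), -1.57 to -1.29 (TRiC cofactors), -0.50 to -0.11 (tubulin cofactors), -1.26 to -1.09 (HSP70 and HSP90), -0.83 to -0.16 (heat-inducible) and -0.57 to -0.47 (endoplasmic reticulum). Cct5 ran from -0.64 to -0.45 and Cct7 from -0.54 to -0.42. Genes called lower ran from 4 to 7 (WD repeat), 0 to 1 (heat-inducible), 4 to 7 (mitochondrial HSP70) and 3 to 7 (endoplasmic reticulum), and genes called higher from 0 to 1 (WD repeat), 0 to 1 (HSP70 and HSP90) and 0 to 2 (mitochondrial HSP70). The causes were not tested. Psph, Timm8b, Htra2 and Hsf1 rest on few counts in some libraries, which limits their precision.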
